A study of Mus musculus with 2 samples.

Results

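The genes described here are 10 genes of brain endothelial cells and of the blood-brain barrier: Cldn5, Cdh5, Pecam1, Flt1, Kdr, Tek, Slc2a1, Slco1c1, Abcb1a and Vwf. They were chosen by name, as every probe that carried one of these gene names on both arrays and was not a control spot. Of the 27962 gene names and 41174 probes on the arrays, these were 10 names and 20 probes, and 6 of the genes had more than 1 probe. A probe counted as detected when the scanner software marked it as well above background in at least 1 channel of each array, which held for 18 of the 20 probes and for all 10 genes.

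The samples were whole brains of C57BL/6J dams, 8 weeks old, on the day of parturition (P0, postpartum day 0). Dams without TDAG51 (TDAG51-/-, gene symbol Phlda1) were compared with wild-type dams (TDAG51+/+) on a first array and with dams of the line TDAG51-/-Tg2 on a second. That line carries a TDAG51 transgene on the knockout background, placed behind the BAI1-AP4 promoter, for which the study names cortex and hippocampus as the chief sites of activity. In these two-colour arrays the TDAG51-/- RNA was labelled with Cy3 both times and the control RNA with Cy5, how many dams made up a sample is not stated, and there was 1 array for each comparison. No spread between animals could therefore be measured, no test was made, and array, dye and group cannot be told apart. In RNA of whole tissue, fewer cells of a type and less RNA per cell cannot be told apart either.

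The targeted gene was looked at first, as a check of the labels. Phlda1 (TDAG51) read 350 in TDAG51-/- and 7283 in TDAG51+/+, 17.3-fold lower. On the second array it read 44.1 in TDAG51-/- and 50.5 in the sample labelled TDAG51-/-Tg2, and neither channel was well above background, so the probe did not show the transgene. Whether the probe lies within the transgene is not known. In what follows, TDAG51-/-Tg2 means the library with that label, and every direction against it rests on the label alone.

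Brain endothelial cells line the vessels and form the blood-brain barrier. Tight junctions made of claudins seal the gaps between them, adherens junctions hold them together, and transporters carry glucose, hormones and amino acids across while efflux pumps return many drugs to the blood. Vascular endothelial growth factor (VEGF) and the angiopoietins, acting through receptor tyrosine kinases on these cells, control vessel growth and stability. Each of the 10 genes marks endothelium in the brain, although several of them, Slc2a1, Slco1c1 and Abcb1a included, are also expressed in other cells.

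Several genes were measured by probes at different places in the gene. The sequences below are those of the probes with the largest differences and of some pairs of probes that gave different ratios for 1 gene. Of the Pecam1 probes only the bright one is printed. Each probe is 60 bases long, and the first 30 bases are given 5′ to 3′ in lower case, as in the scanner files, with the mm7 position of the whole probe. The letters show that the paired probes read different stretches, and no base is set apart.
Kdr (NM_010612, chr5:75351537-75351596, minus strand): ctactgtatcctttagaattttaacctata
Cdh5, bright probe (NM_009868, chr8:102744763-102744822, plus strand): acttattataagactctagttctcacagac
Cdh5, dim probe (NM_009868, chr8:102744103-102744162, plus strand): tccgtcaacttcaggaaaatggcttgtcga
Tek (AK053336, chr4:94134402-94134461, plus strand): agttctcatagaacttagcagtgttacccc
Tek (NM_013690, chr4:94266776-94266835, plus strand): ctctaatgtgactgtatatactgctcggag
Flt1 (BC029674, chr5:146532609-146532668, minus strand): caccaagctttgatggcattcaaagatgtc
Flt1 (NM_010228, chr5:146456619-146456678, minus strand): aagtaaagaaaagctatcgggattctctgg
Pecam1 (NM_008816, chr11:106790116-106791969, minus strand): aacagcgagaagatttctgagcctagtgtg
The Pecam1 probe spans 1854 bases of the genome, more than its own length. Both Cdh5 probes start 660 bases apart, both Tek probes 132374 bases apart and these Flt1 probes 75990 bases apart. Exon and UTR annotation of this build was not used here.

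None of the 10 endothelial genes reached the 2-fold threshold of the study in either comparison as measured, where a gene is represented by its brightest probe. For Slc2a1 over TDAG51+/+ this is not settled, since its Cy5 spot was saturated and the fold has only a lower bound. Among all 33253 detected probes, 9.35% were at least 2-fold apart between TDAG51-/- and TDAG51+/+ and 8.54% between TDAG51-/- and TDAG51-/-Tg2. The median log2 ratio of the 10 genes was 0.36 for TDAG51-/- over TDAG51+/+, beside 0.02 over all detected probes, and it was 0.18 with median centring and 0.033 without dye normalization. It was 0.04 for TDAG51-/- over TDAG51-/-Tg2, again beside 0.02, and it turned to -0.15 and -0.34 under these alternatives. Against TDAG51+/+, 6 of the 10 genes had a ratio above 0, which 51.8% of all detected probes had. Against TDAG51-/-Tg2, 7 genes were above 0, beside 51.7% of all detected probes, but 4 were with median centring and 0 without normalization. At 1.5-fold, Kdr and Cdh5 were higher in TDAG51-/- than in TDAG51+/+, a size that 14.4% of all detected probes reached in that direction. No gene of the 10 was 1.5-fold apart from TDAG51-/-Tg2, beside 25.9% of all detected probes in either direction.

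**Figure D1:**
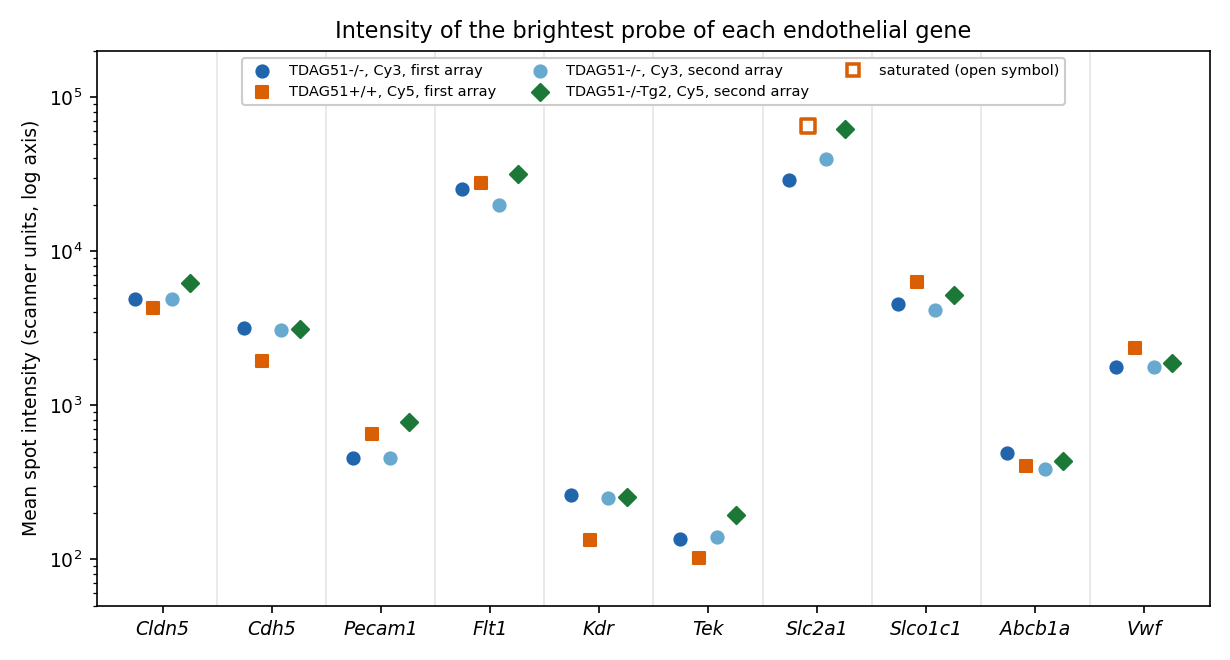
Mean spot intensity (scanner units, log axis) of the brightest probe of each of the 10 genes in the 4 channels; circles are TDAG51-/- (Cy3), squares TDAG51+/+ and diamonds TDAG51-/-Tg2 (both Cy5), and an open symbol is saturated. The intensities of TDAG51-/- lie close together for most genes (Cldn5 4912 and 4892), and Kdr and Cdh5 have their lowest value in TDAG51+/+ (134 and 1950); levels of different genes are not comparable between probes.

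Of the genes of the junctions, Cldn5 and Cdh5 were higher in TDAG51-/- than in TDAG51+/+, and Pecam1 was lower than in both controls. Cldn5, the main claudin of the brain endothelial tight junction, had an intensity of 4912 in TDAG51-/- and 4303 in TDAG51+/+ on the first array, and of 4892 in TDAG51-/- and 6189 in TDAG51-/-Tg2 on the second. Both intensities of TDAG51-/- were nearly equal, and those of the controls, not yet normalized between dyes, lay on either side of them. After normalization the log2 ratio was 0.51 over TDAG51+/+ (1.42-fold higher) and 0.02 over TDAG51-/-Tg2. The error model of the scanner gave ± 0.21 and ± 0.20 on the log2 scale, which covers the measurement of 1 spot and not the animals.

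Cdh5, or VE-cadherin, is the cadherin of endothelial adherens junctions. Its bright probe had 3189 in TDAG51-/- and 1950 in TDAG51+/+, and 3072 in TDAG51-/- and 3119 in TDAG51-/-Tg2. The wild-type sample was the low one of the 4. The log2 ratio was 0.95 over TDAG51+/+ (± 0.22 by the scanner's error, 1.93-fold higher) and 0.26 over TDAG51-/-Tg2 (± 0.20), and 94.3% and 69.0% of all detected probes had lower ratios. The dim Cdh5 probe read 84.1 against 71.8 on the first array, with a log2 ratio of 0.16. On the second array it read 70.9 against 77.8, with the Cy5 channel not well above background. This probe lay just over a local background of 41.0 in Cy3 on both arrays, and its ratio on the first array was 0.54 in the deposited values and 0.57 in the scanner's, so that its size depends on how the background was treated.

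Pecam1, or CD31, an adhesion molecule at the contacts between endothelial cells, was printed as 10 spots of 1 probe. After 3 outlier spots were left out on the first array, the mean intensities were 455 in TDAG51-/- and 650 in TDAG51+/+, and 455 in TDAG51-/- and 775 in TDAG51-/-Tg2. Both controls were above TDAG51-/- on this probe. The log2 ratio was -0.37 ± 0.04 (SD, n = 7 spots) over TDAG51+/+ and -0.53 ± 0.07 (SD, n = 10 spots) over TDAG51-/-Tg2, and no single spot was above -0.32 on the first array or -0.44 on the second. These are folds of 1.29 and 1.44, and 21.7% and 13.9% of all detected probes had lower ratios. The second Pecam1 probe (AK031380), which starts 669 bases away, was dim, with 102 against 105 on the first array and 90.4 against 105 on the second, and its log2 ratios were -0.04 and 0.01. The difference of Pecam1 was thus seen at its bright probe and not at the dim one.

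**Figure D2:**
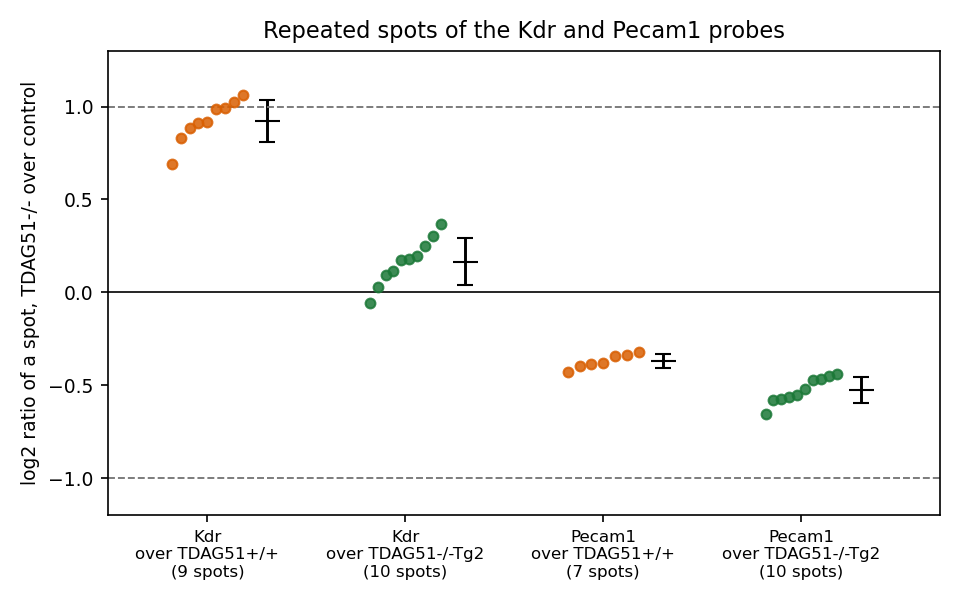
Log2 ratio of each spot (TDAG51-/- over control) for the Kdr and Pecam1 probes printed many times, sorted by value, with the mean and SD over spots in black beside them; dashed lines mark 2-fold. The 9 Kdr spots over TDAG51+/+ lie between 0.69 and 1.06 and the 10 over TDAG51-/-Tg2 between -0.06 and 0.37, while all Pecam1 spots lie below 0; spots of 1 array are no replicates of animals.

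The receptors of VEGF and angiopoietin gave the largest ratio of the group after Cdh5. Kdr, or VEGFR2, the main signalling receptor of VEGF on endothelium, was also printed 10 times. Its mean intensities were 260 in TDAG51-/- and 134 in TDAG51+/+, and 249 in TDAG51-/- and 255 in TDAG51-/-Tg2. As with Cdh5, TDAG51+/+ was low and the other 3 values were alike. The log2 ratio was 0.92 ± 0.11 (SD, n = 9 spots) over TDAG51+/+, or 1.90-fold, and 0.16 ± 0.13 (SD, n = 10 spots) over TDAG51-/-Tg2. The ratio over TDAG51+/+ passed 2-fold with offset 0 (log2 ratio 1.23), in the scanner's own log ratio (1.36) and in the deposited one (1.37). A second Kdr probe (AK054510), 30630 bases away, was not well above background in either channel of either array.

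Flt1, or VEGFR1, binds VEGF with high affinity and is also made in a shorter, secreted form that traps it. It had 5 probes, of which the brightest (BC029674) read 25423 in TDAG51-/- and 27660 in TDAG51+/+, and 20076 in TDAG51-/- and 31814 in TDAG51-/-Tg2. Its log2 ratio was 0.49 over TDAG51+/+ and -0.04 over TDAG51-/-Tg2, but the level of TDAG51-/- itself was lower by 0.36 on the log2 scale on the second array. The probe near the end of the gene shown above (NM_010228) read 6844 against 6701 and 7808 against 7196, with log2 ratios of 0.41 and 0.54. A neighbour 73 bases away read 1224 against 998 and 1186 against 1024, with log2 ratios of 0.47 and 0.44. The remaining Flt1 probes were dim: AK084177 gave log2 ratios of 0.24 and 0.20, and AK005502 gave 0.17 on the first array. On the second it read 83.0 in TDAG51-/- against 77.4 in Cy5, which was not well above background, so no ratio is given for it. Against TDAG51+/+ all 5 Flt1 probes were thus above 0, although without normalization the brightest was at -0.12. Against TDAG51-/-Tg2 the choice of probe set the ratio.

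Tek, or TIE2, the receptor of the angiopoietins, was dim on both its probes. The brighter one (AK053336) read 135 in TDAG51-/- and 102 in TDAG51+/+, and 140 in TDAG51-/- and 193 in TDAG51-/-Tg2, which gave log2 ratios of 0.34 and -0.26. The other (NM_013690) read 145 against 96.7 and 154 against 118, with log2 ratios of 0.59 and 0.48. Both Tek probes were above 0 over TDAG51+/+, and they had opposite signs over TDAG51-/-Tg2. The scanner's error was between 0.23 and 0.25 for these 4 ratios.

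**Figure D3:**
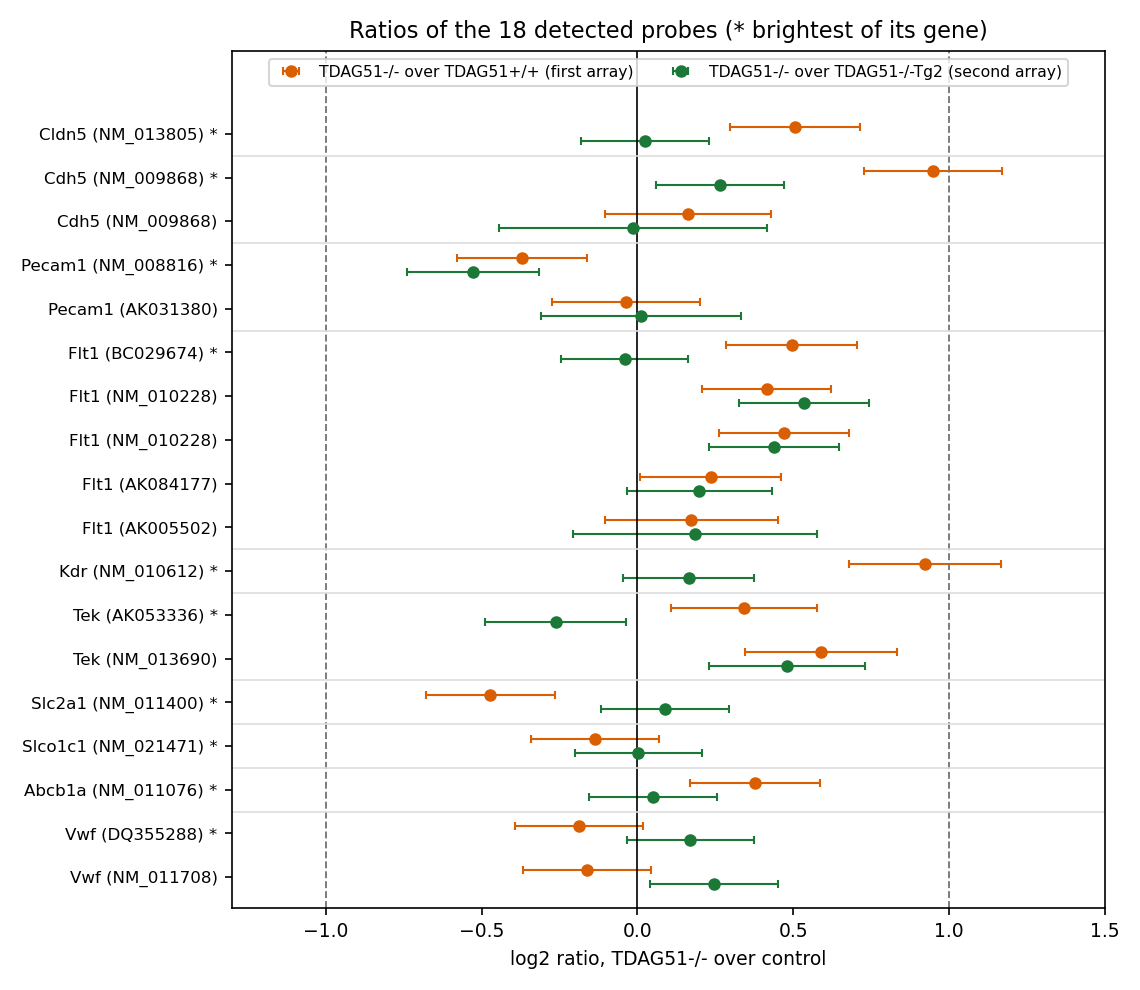
Log2 ratio of TDAG51-/- over TDAG51+/+ (orange) and over TDAG51-/-Tg2 (green) for the 18 detected probes, with the error of the scanner's model as bars and 2-fold as dashed lines; a star marks the brightest probe of a gene, Slc2a1 is saturated in orange, and the green points of AK005502 and the dim Cdh5 probe have a Cy5 channel not well above background. Cdh5 (0.95) and Kdr (0.92) are highest in orange, Slc2a1 (-0.47) is lowest in orange and Pecam1 (-0.53) lowest in green, and the probes of Cdh5, Tek and Flt1 are spread apart.

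The transporters of the barrier had log2 ratios of 0.00 to 0.09 over TDAG51-/-Tg2 under loess, and of both signs over TDAG51+/+. Slc2a1, or GLUT1, which brings glucose across the barrier, read 29105 in TDAG51-/- and 65284 in TDAG51+/+, where the Cy5 spot was saturated, and 39847 in TDAG51-/- and 61938 in TDAG51-/-Tg2. The fold over TDAG51+/+ has only a bound and was at least 1.39-fold lower in TDAG51-/- (log2 ratio -0.47), while the log2 ratio over TDAG51-/-Tg2 was 0.09. The ratio over TDAG51+/+ came to -1.01 with median centring and -1.16 without normalization. Under the same alternatives the ratio over TDAG51-/-Tg2 changed sign, to -0.45 and -0.64. The Slc2a1 level of TDAG51-/- was itself 0.45 higher on the second array on the log2 scale, and 98.5% of all detected probes had a lower difference.

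Slco1c1, or OATP1C1, which carries thyroxine into the brain, read 4554 in TDAG51-/- and 6344 in TDAG51+/+, and 4136 in TDAG51-/- and 5217 in TDAG51-/-Tg2. Its log2 ratios were -0.14 and 0.00. Abcb1a, or P-glycoprotein, the main efflux pump of the mouse barrier, read 487 in TDAG51-/- and 402 in TDAG51+/+, and 388 in TDAG51-/- and 436 in TDAG51-/-Tg2. Its log2 ratios were 0.38 and 0.05. Neither gene was 1.5-fold apart in any pair of samples that shared an array.

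Vwf, or von Willebrand factor, is stored in endothelial cells and tethers platelets to injured vessel walls. Its brighter probe (DQ355288) read 1770 in TDAG51-/- and 2358 in TDAG51+/+, and 1784 in TDAG51-/- and 1881 in TDAG51-/-Tg2, with log2 ratios of -0.19 and 0.17. The second probe (NM_011708), 693 bases away, read 956 against 1214 and 951 against 934, with log2 ratios of -0.16 and 0.25. Both Vwf probes were below 0 over TDAG51+/+ and above 0 over TDAG51-/-Tg2 under loess, and DQ355288 changed to -0.08 on the second array without normalization. The last Vwf probe (AK044921) was not well above background in any channel.

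As TDAG51-/- was in Cy3 on both arrays, the change of each channel between the arrays could be set side by side after the channels had been scaled between arrays. Whether both arrays held the same TDAG51-/- RNA is not stated, and its Phlda1 (350 and 44.1) and Hba-a1 (2259 and 35469) intensities differed between them, so a difference between the TDAG51-/- samples cannot be told apart from one of the arrays. Over all detected probes, the SD of that change was 0.20 on the log2 scale in Cy3 and 0.57 in Cy5, where TDAG51-/-Tg2 stood against TDAG51+/+. For Kdr, Tek, Cdh5 and Cldn5, the Cy5 level was higher in TDAG51-/-Tg2 than in TDAG51+/+ by 0.72, 0.68, 0.64 and 0.48, and the Cy3 level of TDAG51-/- moved by -0.04, 0.07, -0.05 and 0.00. The Cy5 differences exceeded those of 92.8%, 91.8%, 90.8% and 85.9% of all detected probes, and the central 95% of these ran from -1.16 to 1.14. The other Tek probe differed by 0.19 in Cy5, and the dim Cdh5 probe gives no such value because its Cy5 channel was not well above background on the second array. Vwf was lower in TDAG51-/-Tg2 than in TDAG51+/+ by 0.36 at one probe and 0.43 at the other. For Flt1 (BC029674) and Abcb1a the Cy3 level of TDAG51-/- moved more (by -0.36 and -0.30) than the Cy5 level did (by 0.18 and 0.02). For Slc2a1 the Cy3 level moved by 0.45, and the change in Cy5 is not known because the TDAG51+/+ spot was saturated.

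**Figure D4:**
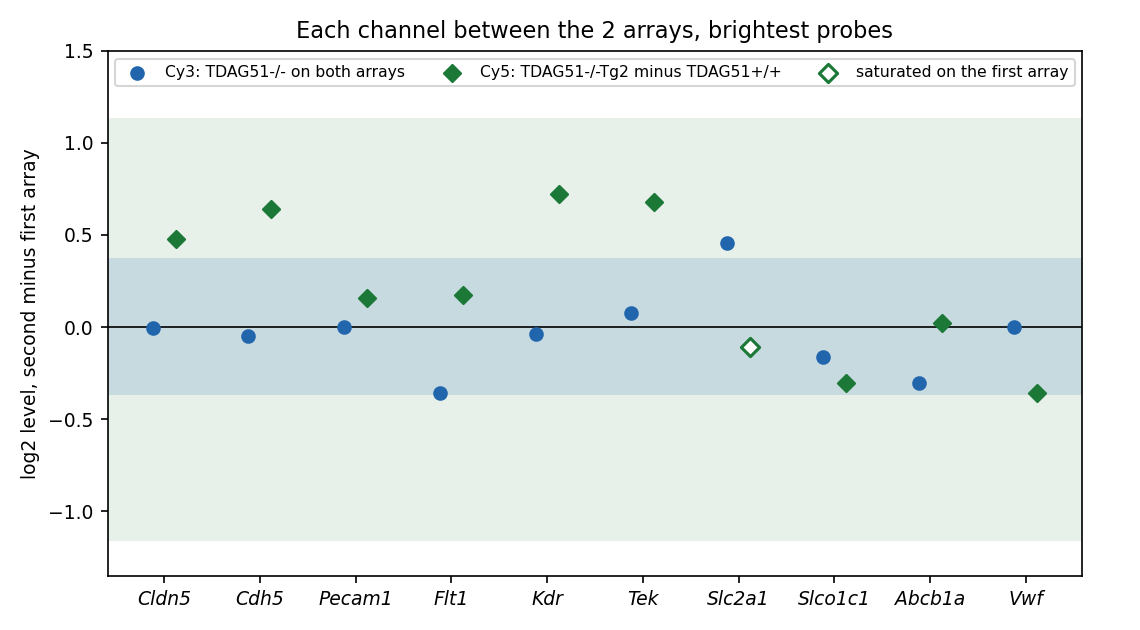
Change of the log2 level of the brightest probe from the first to the second array, for Cy3 (circles, TDAG51-/- on both arrays) and Cy5 (diamonds, TDAG51-/-Tg2 minus TDAG51+/+; open where saturated on the first array); blue and green bands hold the central 95% of all detected probes in Cy3 (-0.37 to 0.38) and Cy5 (-1.16 to 1.14). Kdr, Tek, Cdh5 and Cldn5 have Cy5 values of 0.48 to 0.72 with Cy3 near 0, and the 9 Cy5 values that are not saturated lie within the green band.

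Other genes of the vessel wall and the barrier were grouped in 6 lists, each gene again by its brightest detected probe, and the medians of these lists lay between -0.05 and 0.29 in both comparisons. The 35 further endothelial genes had a median log2 ratio of 0.15 over TDAG51+/+ and 0.24 over TDAG51-/-Tg2, and 3 and 2 of them were 2-fold or more above the control, a size that 5.09% and 4.79% of all detected probes reached. At its brightest probe none was 2-fold or more below the control, beside 4.26% and 3.75% of all detected probes. For Klf2 this is not settled, since its Cy5 spot was saturated on both arrays. Second probes differed for some of these genes. That of Erg was more than 2-fold below both controls, that of Fli1 below TDAG51+/+ and that of Ace below TDAG51-/-Tg2. The second Ly6c1 probe was more than 2-fold above TDAG51-/-Tg2. Eng (endoglin, a co-receptor of TGF-beta family ligands) was 3.18-fold and 3.64-fold higher in TDAG51-/-, with 1669 against 582 and 1679 against 528. Mcam, an adhesion molecule of the vessel wall, was 3.32-fold and 2.41-fold higher, but a second Mcam probe gave log2 ratios of 0.06 and 0.37. The gene that passed over TDAG51+/+ alone was Tal1, a transcription factor of blood and endothelium, at a log2 ratio of 1.19, and it was named after its values were seen.

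The 15 further tight junction genes had medians of 0.00 over TDAG51+/+ and 0.17 over TDAG51-/-Tg2. Jam2 entered with log2 ratios of -0.06 and 0.19 at its brightest probe, while its other probe was at 1.77 and 2.01. Marveld2 (tricellulin, found where 3 cells meet) was 6.66-fold and 3.78-fold higher in TDAG51-/-, and its second probe gave log2 ratios of 0.28 and 0.43. Cgnl1 (paracingulin, a scaffold of junctions) was 2.65-fold and 2.84-fold higher, and the lowest of its 4 probes had log2 ratios of 0.75 and 0.13. Cldn1 was at a log2 ratio of -1.68 over TDAG51+/+, with 103 against 367, while its second probe was at 0.57, and it was also named after its values were seen. Ocln and Tjp1, the partners of Cldn5 in the junction, had log2 ratios of 0.27 and 0.32 over TDAG51+/+ and of 0.48 and 0.05 over TDAG51-/-Tg2. Ocln was dim, with 118 against 98.5 and 111 against 83.9. The second Tjp1 probe gave log2 ratios of 0.69 over TDAG51+/+ and 0.83 over TDAG51-/-Tg2.

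The 22 further transporters and receptors of the barrier had medians of -0.05 and 0.03. The amino acid transporter Slc38a5 was higher in TDAG51-/-, 2.17-fold over TDAG51+/+ and 1.92-fold over TDAG51-/-Tg2. The efflux pump Abcc4 was 1.66-fold and 2.42-fold higher, and its second probe was at a log2 ratio of -0.52 and -0.11. At its brightest probe, no other gene of these 22 had a fitted ratio of at least 2-fold in either comparison. For Slc7a1 this is not settled, since its Cy3 channel was not well above background on either array and the fold has only a lower bound. Another Lrp1 probe was more than 2-fold higher in TDAG51-/- in both comparisons, and another Slc16a1 probe was so over TDAG51+/+.

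Among 16 genes of the VEGF and angiopoietin system, the ligands and co-receptors of Flt1, Kdr and Tek included, the medians were 0.22 and 0.12. Vegfa, the main ligand of Flt1 and Kdr, was 2.83-fold and 1.90-fold higher in TDAG51-/- at its brightest probe, and another of its 3 probes was at -0.23 over TDAG51+/+. Vegfd, a ligand of lymphatic and blood vessel receptors, was 3.74-fold and 1.64-fold lower. Angpt1 and Angpt2, the ligands of Tek, had log2 ratios of 0.48 and 0.85 over TDAG51+/+ and of 0.30 and -0.20 over TDAG51-/-Tg2, and a second Angpt1 probe was at -0.06 over TDAG51+/+. The 13 genes of the Wnt signal that induces the barrier had medians of 0.29 and 0.15. Wnt7a, a ligand that neural cells send to the endothelium, was 3.64-fold and 2.88-fold higher in TDAG51-/-, and Wnt7b, a ligand of the same kind, was 2.42-fold and 2.46-fold lower. Of the 8 binding partners of Vwf, 7 were detected, with a median of 0.18 in both comparisons and no fitted ratio at 2-fold. These medians fell on F8 over TDAG51+/+ and on Adamts13 over TDAG51-/-Tg2, whose Cy5 channels were not well above background there. Whether F8 and Gp9 were 2-fold apart, or Adamts13 over TDAG51-/-Tg2, is thus not settled. Gp1bb, a subunit of the platelet receptor, had log2 ratios of -0.41 and -0.44. Gp9, another subunit, read 108 against 62.3 and 114 against 65.2, with the Cy5 channel not well above background on either array.

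Cells that share the vessel with the endothelium were described by their markers. All 14 pericyte and smooth muscle genes were detected, with medians of 0.28 over TDAG51+/+ and -0.09 over TDAG51-/-Tg2. Pdgfrb and Anpep, which mark pericytes, were higher in TDAG51-/- by log2 ratios of 0.92 and 0.73 over TDAG51+/+ and of 0.99 and 0.86 over TDAG51-/-Tg2. Rgs5, also a pericyte marker, stood at 19435 in TDAG51-/-Tg2 against 2238 in TDAG51-/-, a log2 ratio of -2.72, and at 4942 in TDAG51+/+ against 4832, but a second Rgs5 probe gave log2 ratios of -0.26 over TDAG51-/-Tg2 and 0.12 over TDAG51+/+. The summed intensity of this list, which is not normalized between dyes and rests mostly on its brightest probes, was 55403 in TDAG51-/- and 69255 in TDAG51+/+, and 56884 and 85619 on the second array. On the first array it thus ran opposite to the median, with 11 of the 14 ratios above 0. The part of the pericyte markers in the Cy5 differences of Kdr, Tek, Cdh5 and Cldn5 was not tested. The astrocyte endfoot list (8 genes) had medians of 0.13 and 0.09, with Aqp4 at 0.97 and 1.28 and Dtna at 0.62 and 0.75, although other Dtna probes went down to 0.09 and -0.25. The list of fibroblasts and meninges (9 genes) had medians of 0.37 and 0.13, with Ogn at 0.65 and 0.92 and Igfbp2 at -0.69 and -0.64.

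The samples also differed in markers of regions and of blood. Of 8 cerebellar genes, 6 were higher in TDAG51-/- by 2-fold or more in each comparison (median log2 ratio 2.19 and 2.15), led by Gabra6, Pcp2, Cbln3, Cbln1 and Slc1a6, of which Gabra6 was 14.7-fold and 15.2-fold higher. Of 8 striatal genes, 6 were lower by as much (median -1.44 and -1.66), among them Drd1, Adora2a, Rgs9 and Tac1. Other probes of Adora2a and Tac1 were at -0.30 and 0.13 over TDAG51+/+. The summed intensity of the cerebellar list, again not normalized and with 3 genes (Pcp2, Cbln1 and Zic1) saturated in TDAG51-/-, was 283082 and 291586 in TDAG51-/-, 114184 in TDAG51+/+ and 119148 in TDAG51-/-Tg2. Choroid plexus genes (10) had medians of 0.79 and 0.49, with 8 and 9 of them above 0. Kcne2 was 3.03-fold and 2.25-fold higher, and Aqp1 went the other way, with log2 ratios of -1.41 and -0.12. Slc4a5 was 5.10-fold and 2.53-fold higher at its brightest probe and had log2 ratios of -0.04 and -0.10 at the other. Microglial genes had medians of -0.59 and -0.47, with 0 of 8 above 0 in either comparison, Tmem119 at -0.93 and -1.34 and Aif1 at -0.69 and -0.65. The 8 detected blood genes had medians of -0.41 and 0.72, with Ppbp at 0.95 and 1.16 and Itga2b at -0.29 and -0.29. Their summed intensity, not normalized, was 8229 in TDAG51-/- and 44983 in TDAG51+/+, and 41447 in TDAG51-/- and 28619 in TDAG51-/-Tg2. Hba-a1, the alpha chain of haemoglobin, read 2259 in TDAG51-/- and 32894 in TDAG51+/+, but 35469 in TDAG51-/- and 23756 in TDAG51-/-Tg2. Neuronal genes were detected for 8 of 8 (medians -0.09 and -0.13), and 4 and 3 of them were above 0. These counts and medians include Eno2, at 0.60 and 0.53, whose Cy5 spot was saturated on both arrays, so its direction is not known. Syt1 was at -0.56 and -1.29 and Map2 at -0.63 and -0.90, although other Map2 probes reached 0.41 and 0.42. Nefl went the other way, at 0.37 and 0.80. Housekeeping genes had medians of -0.02 and 0.02, but 4 of the 8 were saturated in Cy5 and without saturated probes the medians were -0.55 and -0.29, with Ppia 2-fold and 1.61-fold lower in TDAG51-/- and Rpl13a 1.57-fold and 1.43-fold lower. The part of these region and blood markers in the ratios of the endothelial genes was not tested.

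**Figure D5:**
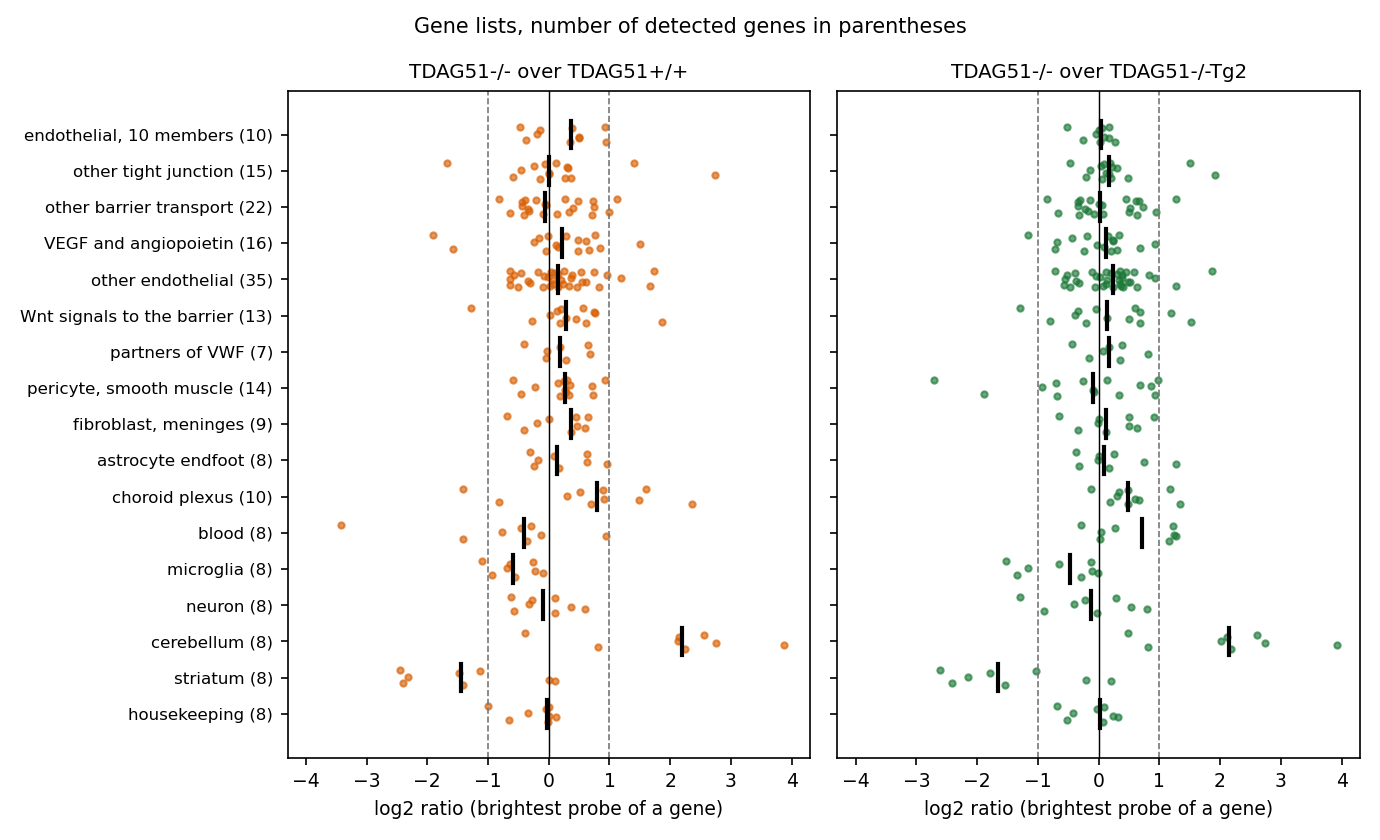
Log2 ratio of TDAG51-/- over TDAG51+/+ (left) and over TDAG51-/-Tg2 (right) for the detected genes of each list, 1 point for each gene by its brightest probe, with the median as a black bar and 2-fold as dashed lines. The 10 endothelial genes all lie between the dashed lines, with medians of 0.36 and 0.04, while the cerebellar (2.19 and 2.15) and striatal (-1.44 and -1.66) medians lie outside them.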

How the data were processed

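The 10 genes and the 16 lists were chosen with earlier results of these data known. The files hold 2 two-colour Agilent arrays of 1 slide. Per the labels and file headers, total RNA was labelled and scanned with Agilent Feature Extraction 9.5.3.1. The deposited values are mean and background intensity of each spot, the software's log10 ratio of Cy5 over Cy3 after its own dye normalization with the error, marks for background, saturation and outliers, and the log2 ratio of Cy3 over Cy5 the authors deposited. The methods state a 2-fold threshold. In limma 3.58.1 (R 4.3.3), background was corrected with normexp (offset 50) and each array was then normalized with loess. Control and outlier spots were left out and spots of a probe averaged. The offset shrinks ratios of dim probes. All ratios are TDAG51-/- over control, and signals are cut at saturation. Channels were scaled between arrays by Aquantile for bounds and channel differences. Lower bounds apply where a channel was saturated or not well above background. Gene names came from the files and RefSeq (GRCm38.p6), and all 20 probes matched. Probe positions are on mm7. Named genes were all 10 genes, in each list those at least 2-fold from both controls in 1 direction (at most 5, otherwise the 2 with the largest smaller ratio), and Phlda1; other genes of the lists were named after their values were seen. One gene that this rule names is not reported here. The calculation was tested on simulated data. The median intensities of the first array were 325.2 (Cy3) and 347.9 (Cy5), those of the second 321.6 and 368.5. Precision is limited by the number of arrays. Tables and figures used Python 3.11.15, numpy 2.4.6, pandas 2.3.3 and matplotlib 3.10.9. Alternatives were offset 0, the scanner's ratio, the deposited ratio, median centring, no normalization, 2 other filters on dim probes, the median of all probes, saturated probes left out, outlier spots kept and a 1.5-fold threshold.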

Additional observations from a re-analysis of the deposited data

How the results depend on the processing

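The median log2 ratio of the 10 genes over TDAG51+/+ (0.36) was above 0 under every alternative run. It came to 0.46 with offset 0, 0.45 with the scanner's ratio, 0.45 with the deposited ratio, 0.18 with median centring and 0.033 without normalization. The median over TDAG51-/-Tg2 (0.04) was 0.10 when a gene took the median of its probes, -0.15 with median centring and -0.34 without normalization. Without normalization the median of all detected probes was itself at -0.19 and -0.24, and relative to it the 10 genes were at 0.22 and -0.09. The count of genes at least 2-fold from TDAG51+/+ rose from 0 to 1 with offset 0, the scanner's ratio and the deposited ratio (Kdr each time) and to 1 with median centring and without normalization (Slc2a1 both times), and 2 genes passed at 1.5-fold. The count for TDAG51-/-Tg2 was 0 under all of these. Of the 36 ratios of single probes, 5 changed sign with median centring, 9 without normalization and 1 each with the scanner's and the deposited ratio. The cause was not tested. Leaving out saturated probes removed Slc2a1. No paired analysis was possible because each comparison had 1 array, and no replicate could be left out. Dim probes (Tek, Kdr, the dim probes of Cdh5, Pecam1 and Flt1) lay near background, which limits the size of their ratios.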

Other observations

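Some genes beside the 10 differed more than Kdr did in the ratio of TDAG51-/-Tg2 over TDAG51+/+ taken from both arrays. This ratio also holds any change of the TDAG51-/- level between the arrays. The genes were named after their values were seen. Rgs5 was higher in TDAG51-/-Tg2 by 3.01 on the log2 scale at its brightest probe, while its second probe had log2 ratios of TDAG51-/- of only 0.12 over TDAG51+/+ and -0.26 over TDAG51-/-Tg2. The smooth muscle genes Cnn1 and Myh11 were higher by 1.43 and 1.20. The Wnt pathway ligand Ndp (norrin) was higher by 1.37 and the endothelial phosphatase Ptprb, a partner of Tek, by 1.16. The VEGF family ligand Pgf was lower in TDAG51-/-Tg2 by a log2 difference of -1.82, the amino acid transporter Slc7a5 by -1.34 and the endothelial surface antigen Ly6c1 by -1.23. Each value rests on 1 array for each sample, and array and group cannot be told apart.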
